A study of Mus musculus with 8 samples.

Results

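The transcripts of 10 mouse Toll-like receptors were compared between bone marrow-derived dendritic cells (BMDC) and BMDC that had engulfed ferroptotic cancer cells (BMDC-fer). The members were chosen by name, as the rows of the count table whose Ensembl gene identifiers carry the symbols Tlr1 to Tlr9 and Tlr13, and they were 10 of 55487 genes. They comprised 5 receptors of the cell surface (Tlr1, Tlr2, Tlr4, Tlr5 and Tlr6) and 5 endosomal receptors (Tlr3, Tlr7, Tlr8, Tlr9 and Tlr13).

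Both groups were wild-type cells from female C57BL/6J mice, 6 to 8 weeks old, whose bone marrow was cultured for 10 days with GM-CSF at 20 ng/ml, a growth factor that drives marrow cells towards dendritic cells and macrophages. The 4 BMDC libraries came from untreated cells. The 4 BMDC-fer libraries came from cells stained with CellTraceViolet and kept for 4 h with Jurkat cells, an established human T-cell leukemia line killed beforehand by ferroptosis with ML162 (0.5 µM, 14 h), a compound that blocks the lipid peroxide-reducing enzyme GPX4. Only BMDC that had taken up corpses were sorted for BMDC-fer, and whether untreated BMDC were sorted is not given in the sources used here, so that uptake, contact with dead cells, staining and sorting cannot be told apart. The study describes its libraries as independently collected, but no source says which cultures came from the same animals.

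Toll-like receptors are transmembrane proteins that recognise microbial molecules and some molecules of damaged cells with a leucine-rich ectodomain and signal through a cytoplasmic TIR domain. Surface receptors bind lipids, lipopeptides and flagellin, whereas endosomal receptors bind nucleic acids and depend on the chaperone UNC93B1 and on acidic proteases. The adaptors MyD88 and TRIF carry the signal to NF-κB, AP-1 and interferon regulatory factors, and dendritic cells use these receptors to start maturation and cytokine release.

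All 8 libraries carried Itgax, which encodes the dendritic cell integrin CD11c, at 748 to 1407 CPM, which are counts relative to the library size scaled by the TMM method. C1qb, a complement gene of macrophages, was present at 288 to 1133 CPM. Flt3, the receptor of a dendritic cell growth factor, was between 3.43 and 4.47 CPM in BMDC and between 0.122 and 0.445 CPM in BMDC-fer, one of 2 called genes among 7 dendritic cell markers, both lower in BMDC-fer. The 8 macrophage markers summed to 1869.8 to 2579 CPM in BMDC and 2139 to 3628 CPM in BMDC-fer, and 1 of them, Adgre1, was called and lower in BMDC-fer. The 6 T-cell markers summed to 0.828 to 4.93 CPM in BMDC and 0.131 to 0.809 CPM in BMDC-fer. In bulk RNA, fewer cells of a type and less RNA per cell cannot be told apart.

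Total counts per library were 39326672 to 50532209, and 3 counts, taken as the floor for counting error, corresponded to 0.0607 to 0.0785 CPM. In both groups, replicates 1 and 2 stood apart from replicates 3 and 4. The chi-square per gene between libraries of 1 group was 9.0 to 40.8 within these pairs and 133 to 346 across them. Each result is therefore given over all 8 libraries and, where it differs, within each pair or with the replicate number as a block, a term that compares libraries of the same number. Which technical or biological difference separates the pairs was not tested.

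The members lie on 7 chromosomes of GRCm38 in the GENCODE M21 annotation. Tlr1 (ENSMUSG00000044827, chromosome 5 from 64924679 to 64933563, minus strand) and Tlr6 (ENSMUSG00000051498, chromosome 5 from 64952031 to 64960097, minus strand) are neighbours. Tlr8 (ENSMUSG00000040522, chromosome X from 167242696 to 167264329) and Tlr7 (ENSMUSG00000044583, chromosome X from 167304929 to 167330558) are also neighbours, both on the minus strand, and Tlr13 (ENSMUSG00000033777, chromosome X from 106143204 to 106160493, plus strand) lies elsewhere on the same chromosome. Tlr2 (ENSMUSG00000027995) spans chromosome 3 from 83836272 to 83841767 on the minus strand, and Tlr3 (ENSMUSG00000031639) spans chromosome 8 from 45395665 to 45411080 on the minus strand. Tlr4 (ENSMUSG00000039005) spans chromosome 4 from 66827584 to 66930284, Tlr5 (ENSMUSG00000079164) spans chromosome 1 from 182954788 to 182976044, and Tlr9 (ENSMUSG00000045322) spans chromosome 9 from 106222598 to 106226883, all on the plus strand.

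The counts of 3 members carry a limit of assignment. Of the 50-base words in its longest transcript, Tlr1 shared 15.3% with Tlr6, and Tlr6 shared 12.6% with other genes, nearly all of them with Tlr1, and how reads mapping to both were counted is not given in the sources used here. Tlr3 shares 381 exon bases with the antisense gene Gm45542, and the use of strand in counting is likewise not given. The other 7 members shared no 50-base word with another gene.

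Promoter sequences from RefSeq (GRCm38.p6) were found for 8 of the 10 members, all but Tlr4 and Tlr7. The sequences that follow belong to the called receptors Tlr13 (chrX:106143025-106143203, plus strand) and Tlr5 (chr1:182954538-182954787, plus strand), to the upstream one of 2 listed starts of Tlr1 (chr5:64933564-64933808, minus strand), which was called with the replicate block, and to Tlr9 (chr9:106222348-106222597, plus strand), the endosomal receptor with the largest fold change. Each is printed 5′ to 3′ on the strand of its gene and ends before the first annotated exon base. Capitals mark every match, on either strand, to a searched motif: the PU.1 core GAGGAA, the AP-1 element TGANTCA, the interferon element GAAANNGAAA, the NF-κB consensus, the TATA element TATAAA and the STAT element TTCNNNGAA.
Tlr13: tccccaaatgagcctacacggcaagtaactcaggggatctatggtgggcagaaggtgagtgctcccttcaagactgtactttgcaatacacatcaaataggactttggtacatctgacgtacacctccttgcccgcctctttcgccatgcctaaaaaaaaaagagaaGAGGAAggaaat
Tlr5: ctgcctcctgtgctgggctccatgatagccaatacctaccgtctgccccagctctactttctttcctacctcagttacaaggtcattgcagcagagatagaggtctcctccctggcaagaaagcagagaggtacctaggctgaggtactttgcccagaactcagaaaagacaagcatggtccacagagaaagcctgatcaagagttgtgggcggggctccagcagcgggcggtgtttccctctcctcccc
Tlr1: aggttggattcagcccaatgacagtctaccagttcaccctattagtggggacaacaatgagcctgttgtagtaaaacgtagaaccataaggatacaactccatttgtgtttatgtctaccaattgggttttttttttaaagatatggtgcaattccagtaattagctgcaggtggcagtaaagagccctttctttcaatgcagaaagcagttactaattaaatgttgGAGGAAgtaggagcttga
Tlr9: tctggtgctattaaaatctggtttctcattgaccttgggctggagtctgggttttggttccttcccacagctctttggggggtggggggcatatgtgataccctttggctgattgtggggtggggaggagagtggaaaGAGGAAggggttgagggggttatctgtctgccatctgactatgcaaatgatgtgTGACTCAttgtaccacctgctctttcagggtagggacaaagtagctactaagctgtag

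PU.1 is the transcription factor that specifies myeloid cells, and its core occurred in the 250 bases before a start of 4 of the 8 receptors (Tlr1, Tlr8, Tlr9 and Tlr13), where 23.3% of the 32851 RefSeq promoters held it. Here and below, a receptor counts if any of its listed starts has the motif, whereas the percentages are per single promoter. Tlr1 and Tlr6 have 2 listed starts each. The AP-1 element occurred for Tlr9 alone (6.75% of all promoters) and the interferon element for Tlr6 alone (2.98%). The NF-κB consensus occurred for Tlr2 and Tlr3 (7.25%), the TATA element for Tlr6 and Tlr8 (12.4%), and the STAT element for Tlr1 and Tlr8 (7.02%). The STAT match of Tlr1 lay before its downstream start, which is not printed. The windows of that start and of Tlr3 began inside an annotated exon of the same gene. The window of Tlr5 held none of these 6 motifs. TGANTCA and TTCNNNGAA read the same on both strands, and the matches to TATAAA on opposite strands of Tlr8 overlapped each other. A match describes letters and is not a binding site.

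The first question was which receptors these cells express and at what level, and here values were divided by exon length in kilobases (kb) so that genes could be compared. In BMDC, Tlr2, which recognises bacterial lipopeptides, stood first with 55.5 ± 7.90 CPM per kb (SD, n = 4). Tlr13, a receptor for bacterial ribosomal RNA, followed with 33.2 ± 1.91 CPM per kb, and Tlr4, the lipopolysaccharide receptor, with 18.7 ± 3.02 CPM per kb. No library value of these 3 overlapped with its neighbour among them.

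Below them, the ranges of most neighbours in the order overlapped. Tlr7, a receptor for single-stranded RNA, had 14.4 ± 2.13 CPM per kb in BMDC, its relative Tlr8 7.54 ± 2.75, Tlr1 7.40 ± 5.49 and Tlr6 5.14 ± 1.33 (± SD of 4 libraries). Tlr9, the receptor for unmethylated CpG DNA, had 3.32 ± 3.22 CPM per kb, and Tlr3, the receptor for long double-stranded RNA, 0.855 ± 0.455. From Tlr4 down to Tlr3, each receptor overlapped in range with the next. Compared within each BMDC library, Tlr4 nevertheless exceeded Tlr7, Tlr7 exceeded Tlr8, and Tlr9 exceeded Tlr3, while the order of the other neighbours varied. Tlr5, the flagellin receptor, was lowest at 0.171 ± 0.0440 CPM per kb, and all of its libraries lay below those of Tlr3.

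The order in BMDC-fer began with the same receptors, Tlr2 at 63.6 ± 19.4 CPM per kb and Tlr13 at 50.4 ± 2.20, whose ranges now overlapped. Tlr1 came next with 21.5 ± 11.2 CPM per kb, followed by Tlr4 with 20.9 ± 3.09, Tlr7 with 18.4 ± 2.43, Tlr8 with 12.6 ± 3.99 and Tlr6 with 7.57 ± 0.904 (± SD of 4 libraries). Each of these 5 overlapped in range with the next. Compared within each BMDC-fer library, Tlr4 nevertheless exceeded Tlr7, Tlr7 exceeded Tlr8, and Tlr8 exceeded Tlr6. Tlr1 was above Tlr4 in replicates 1 and 2 and below it in replicates 3 and 4. All libraries of Tlr4 lay above those of Tlr8, and all libraries of Tlr1, Tlr4 and Tlr7 above those of Tlr6. Per kb of the longest transcript, the means of Tlr4 (28.5 CPM) and Tlr1 (23.7 CPM) changed places. Tlr13 lay above Tlr1 in every library. Tlr3 had 1.48 ± 0.223 CPM per kb and Tlr9 0.929 ± 0.440, overlapping each other and lying below Tlr6, and Tlr5 was again lowest with 0.0712 ± 0.0177.

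**Figure D1:**
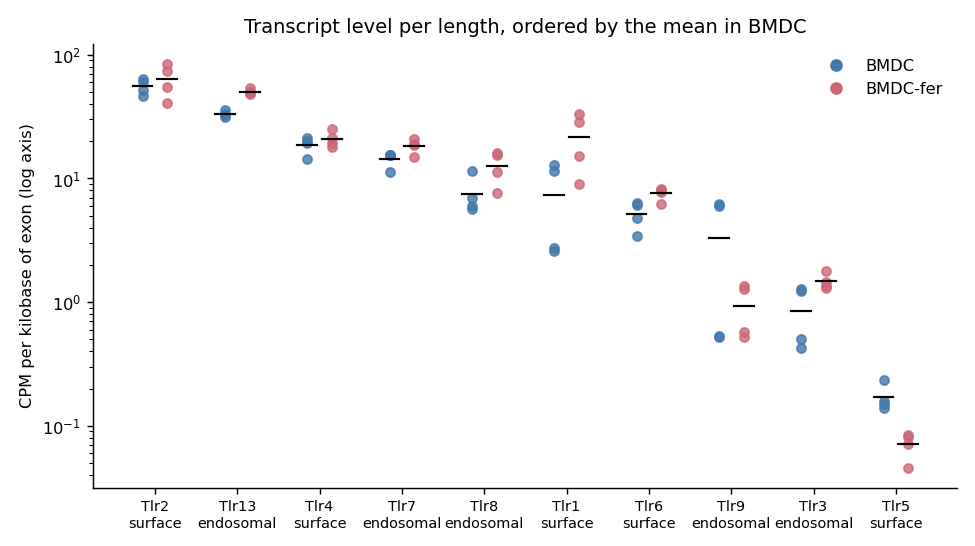
Transcript level of each receptor in CPM per kilobase of exon (vertical axis, log scale), in the 4 BMDC (blue) and 4 BMDC-fer (red) libraries, with bars at the group means and receptors ordered by the BMDC mean. Tlr2 and Tlr13 lead in both groups, Tlr5 is lowest in both, and the BMDC libraries of Tlr9 fall into a high and a low set.

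Summed over each class, surface receptors had 92.8, 97.6, 75.5 and 81.8 CPM per kb in BMDC replicates 1 to 4, against 127, 145, 97.1 and 85.5 in BMDC-fer. Endosomal receptors had 58.8, 70.2, 54.4 and 53.9 CPM per kb in BMDC and 73.8, 82.5, 88.7 and 90.2 in BMDC-fer. The endosomal sums did not overlap between groups, with a mean of 59.3 ± 7.57 in BMDC and 83.8 ± 7.46 CPM per kb in BMDC-fer (± SD of 4 libraries). The surface sums overlapped, with 86.9 ± 10.1 and 114 ± 27.1 CPM per kb.

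Endosomal receptors accounted for 38.8%, 41.8%, 41.9% and 39.7% of the summed level in BMDC replicates 1 to 4. In BMDC-fer the share was 36.7% and 36.3% in replicates 1 and 2 and 47.7% and 51.3% in replicates 3 and 4. The BMDC-fer libraries thus lay on both sides of all BMDC libraries, below them in replicates 1 and 2 and above them in replicates 3 and 4. A single receptor dominated each class. Tlr13 made up 56.3 ± 3.68% of the endosomal sum in BMDC and 60.4 ± 3.90% in BMDC-fer, and Tlr2 made up 63.8 ± 3.13% and 55.3 ± 5.16% of the surface sum (± SD of 4 libraries).

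The second question was which receptors differ between BMDC-fer and BMDC. Of the 10 members, which all passed the filter on low counts, Tlr13 rose and Tlr5 fell in BMDC-fer, and the other 8 did not pass the test. A call required both an adjusted p not above 0.05 in edgeR's quasi-likelihood test (Benjamini-Hochberg adjustment over 15411 tested genes) and a log2 fold change of at least 0.58 in either direction. By this rule 9.38% of all tested genes were called, 3.47% higher and 5.91% lower in BMDC-fer. With the replicate number as a block, 4 members were called, Tlr1, Tlr6 and Tlr13 higher and Tlr5 lower, where 13% of all genes were called (4.85% higher and 8.13% lower). Groups did not overlap for 3 members, higher in BMDC-fer for Tlr3 and Tlr13 and lower for Tlr5, where 22.9% of tested genes did not overlap (11.3% higher and 11.6% lower).

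Among the surface receptors, Tlr1, Tlr2 and Tlr6 belong together, since TLR2 pairs with TLR1 to bind triacylated and with TLR6 to bind diacylated lipopeptides. Tlr1 had 38.1, 43.0, 8.73 and 9.13 CPM in BMDC replicates 1 to 4, against 95.1, 111, 30.3 and 50.9 CPM in BMDC-fer. In each group the first 2 libraries were the highest, and every BMDC-fer library exceeded the BMDC library of the same number, although the groups overlapped. The mean was 24.8 ± 18.4 CPM in BMDC, against 71.8 ± 37.6 CPM in BMDC-fer (± SD of 4 libraries), a log2 fold change of 1.54 (SE 0.62) that was not called (adjusted p = 0.136 in edgeR, Benjamini-Hochberg). With the replicate block it was 1.73 (SE 0.21) and was called (edgeR adjusted p = 0.00762, Benjamini-Hochberg), as it was within replicates 1 and 2 (1.35) and within replicates 3 and 4 (2.20). DESeq2 called Tlr1 without the block (adjusted p = 0.0457, Benjamini-Hochberg).

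Tlr6 had 12.7, 17.7, 23.5 and 22.6 CPM in BMDC, against 23.2, 30.0, 29.1 and 30.5 CPM in BMDC-fer replicates 1 to 4. Only the lowest BMDC-fer library reached into the BMDC range, and it had the same number as the lowest BMDC library. Its log2 fold change was 0.56 (SE 0.20), short of both thresholds (edgeR adjusted p = 0.103, Benjamini-Hochberg). With the replicate block Tlr6 was called at 0.59 (SE 0.14, edgeR adjusted p = 0.0364, Benjamini-Hochberg).

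Tlr2, the shared partner, had 191, 183, 139.8 and 156 CPM in BMDC, against 225, 253, 166 and 123 CPM in BMDC-fer. The ranges overlapped widely, and BMDC-fer replicate 4 was the lowest of all 8 libraries. Tlr2 differed by a log2 fold change of 0.20 (SE 0.22, edgeR adjusted p = 0.583, Benjamini-Hochberg) and was called in none of the alternatives. Per length, Tlr1 exceeded Tlr6 in BMDC replicates 1 and 2 (ratio 3.33 and 2.70) and was below it in replicates 3 and 4 (0.414 and 0.449). In BMDC-fer the ratio of Tlr1 to Tlr6 was 4.56, 4.12, 1.16 and 1.86, higher than in the BMDC library of the same number in all 4 cases.

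Tlr4, which signals from the surface through MyD88 and from endosomes through TRIF, had 79.7, 107, 112 and 118 CPM in BMDC, against 100.1, 107, 139 and 119 CPM in BMDC-fer. The ranges overlapped, with the lowest value in BMDC replicate 1 and the highest in BMDC-fer replicate 3. Its log2 fold change was 0.16 (SE 0.15, edgeR adjusted p = 0.507, Benjamini-Hochberg) and stayed between 0.05 and 0.24 over the alternatives, none of which called it.

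Tlr5 was the surface receptor that fell. It had 49, 36, 28 and 29 counts in BMDC and 17, 9, 17 and 15 counts in BMDC-fer, or 1.13, 0.758, 0.662 and 0.723 CPM against 0.344, 0.220, 0.407 and 0.393 CPM. No BMDC-fer library reached the lowest BMDC library, and all were above the floor of 3 counts. The log2 fold change was -1.26 (SE 0.30, edgeR adjusted p = 0.0324, Benjamini-Hochberg). The two-sided exact permutation test gave p = 0.0286, the smallest that 4 against 4 libraries allow when all are shuffled freely. Free shuffling ignores the replicate pairs described above, so this p-value does not allow for them.

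The call of Tlr5 depended on every library, since it was lost in all 8 fits that left out 1, where the log2 fold change was -1.35 to -1.06. It was -1.70 within replicates 1 and 2, where Tlr5 was called, and -0.77 within replicates 3 and 4, where it was not. The 8 neutrophil markers, of which 4 fell, summed to 44.8 to 261 CPM in BMDC and 13.9 to 43.7 CPM in BMDC-fer, and were highest in BMDC replicates 1 and 3, which held the highest and the lowest Tlr5 value of the group. Without these 2 libraries the log2 fold change of Tlr5 was -1.11 and not called (adjusted p = 0.192 in edgeR, Benjamini-Hochberg), in a fit that called 92 of all genes. The part of neutrophil transcripts in this difference was not tested.

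**Figure D2:**
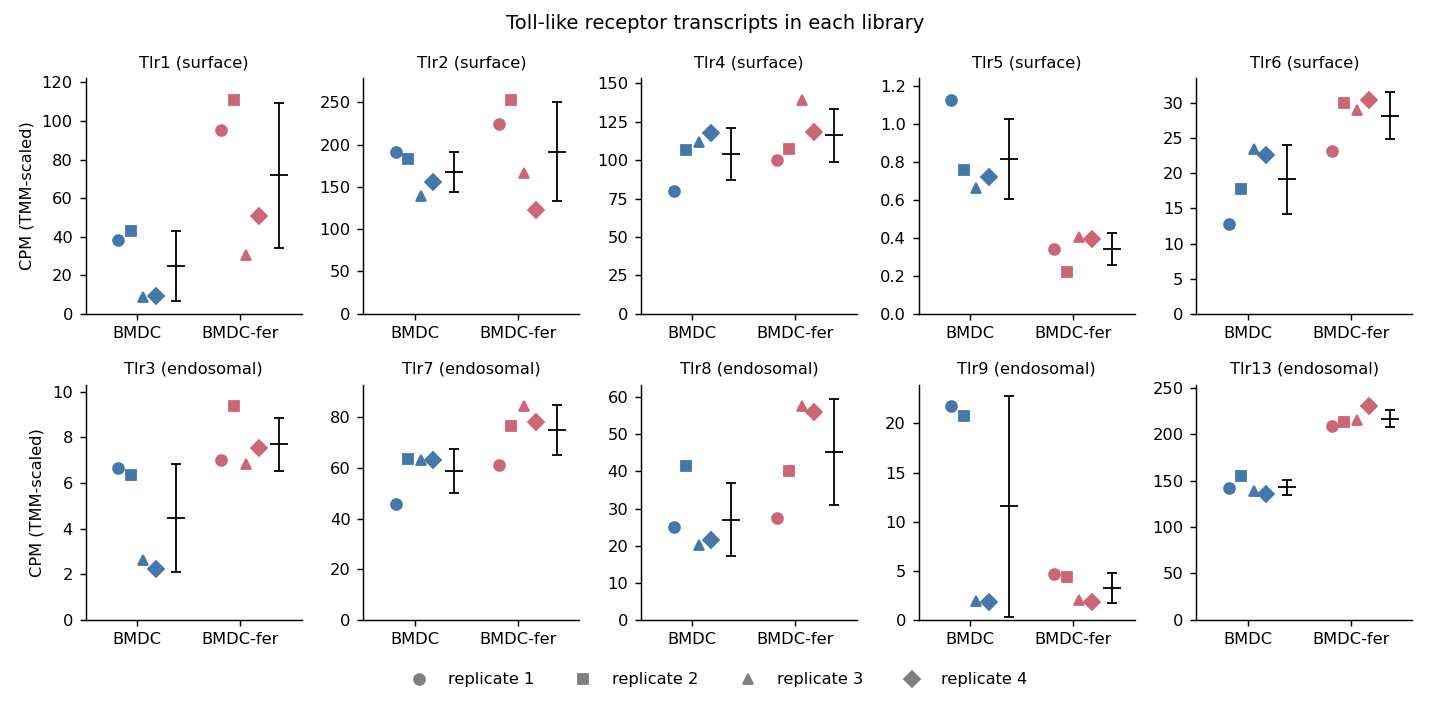
CPM of each receptor in every library (vertical axes from 0, TMM-scaled), with BMDC in blue and BMDC-fer in red, a symbol for each replicate number, and the mean ± SD beside the points. Tlr13 and Tlr3 lie higher and Tlr5 lower in all BMDC-fer libraries, whereas Tlr1, Tlr8 and Tlr9 also differ between replicates 1 and 2 and replicates 3 and 4.

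Among the endosomal receptors, Tlr13 varied least, its highest library being 1.70 times its lowest. It had 142, 155, 139 and 136 CPM in BMDC, against 209, 213, 215 and 230.5 CPM in BMDC-fer replicates 1 to 4. All BMDC-fer libraries lay above all BMDC libraries, and the level in replicates 1 and 2 was 1.08 times that in replicates 3 and 4 in BMDC and 0.945 times in BMDC-fer. The mean rose from 143 ± 8.21 to 217 ± 9.48 CPM (± SD of 4 libraries), a 1.52-fold difference. The log2 fold change was 0.60 (SE 0.09, edgeR adjusted p = 0.00690, Benjamini-Hochberg). The two-sided exact permutation test, which ignores the replicate pairs, gave p = 0.0286.

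The fold change of Tlr13 was close to the threshold of 0.58, so its call was lost for the size of the change, with an edgeR adjusted p (Benjamini-Hochberg) still under 0.05, without BMDC replicate 4 (0.578, adjusted p = 0.0251) and without BMDC-fer replicate 4 (0.577, adjusted p = 0.0321). Within replicates 1 and 2 it was 0.51 and not called, and within replicates 3 and 4 it was 0.71 and called. Without the 2 BMDC libraries richest in neutrophil markers it was 0.58 and not called (adjusted p = 0.107 in edgeR, Benjamini-Hochberg). Over all alternatives the value stayed between 0.51 and 0.71.

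Tlr3, which signals through TRIF, had 6.64, 6.36, 2.60 and 2.22 CPM in BMDC, against 7.02, 9.38, 6.83 and 7.54 CPM in BMDC-fer. All BMDC-fer libraries lay above all BMDC libraries (p = 0.0286 in the two-sided exact permutation test, which ignores the replicate pairs). The gap was small in replicates 1 and 2 and larger in replicates 3 and 4, where BMDC was low. Over all libraries Tlr3 had a log2 fold change of 0.79 (SE 0.37) without a call (edgeR adjusted p = 0.191, Benjamini-Hochberg). With the replicate block it was 0.93 and not called in edgeR (adjusted p = 0.0909, Benjamini-Hochberg), whereas DESeq2 with the block called it (0.94, adjusted p = 0.0170, Benjamini-Hochberg). Within replicates 1 and 2 it was 0.34 and not called, and within replicates 3 and 4 it was 1.59 and called (edgeR adjusted p = 5.16e-05, Benjamini-Hochberg). The latter p-value rests on 2 against 2 libraries and measures only the spread among them.

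Tlr7 and Tlr8 are neighbours on chromosome X. Tlr7 had 45.8, 63.4, 63.1 and 63.1 CPM in BMDC, against 61.1, 76.5, 84.5 and 78.0 CPM in BMDC-fer. In BMDC, 3 libraries were nearly equal and replicate 1 was lower, and BMDC-fer replicate 1 was likewise the lowest of its group. Its log2 fold change of 0.35 (SE 0.15) was not called (adjusted p = 0.144 in edgeR, Benjamini-Hochberg), and its size stayed below the threshold in every alternative.

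Tlr8 had 25.02, 41.5, 20.2 and 21.4 CPM in BMDC, against 27.4, 40.2, 57.7 and 55.9 CPM in BMDC-fer. In replicates 1 and 2 the groups were level, and in replicates 3 and 4 BMDC-fer was higher. The log2 fold change was 0.74 (SE 0.30) over all libraries (edgeR adjusted p = 0.133, Benjamini-Hochberg), 0.03 within replicates 1 and 2 and 1.46 within replicates 3 and 4, where Tlr8 was called (edgeR adjusted p = 8.18e-07, Benjamini-Hochberg). Without BMDC replicate 2, the highest of its group, it was 1.03 and called (edgeR adjusted p = 0.0459, Benjamini-Hochberg). The p-value within replicates 3 and 4 rests on 2 against 2 libraries and measures only the spread among them.

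Tlr9 showed the opposite arrangement. It had 21.8, 20.7, 1.87 and 1.82 CPM in BMDC, against 4.69, 4.41, 2.01 and 1.81 CPM in BMDC-fer. BMDC replicates 1 and 2 were 11.5 times as high as BMDC replicates 3 and 4, whereas all BMDC-fer libraries were low. The log2 fold change of -1.84 (SE 0.85) was not called over all libraries (edgeR adjusted p = 0.183, Benjamini-Hochberg), but it was -2.21 and called within replicates 1 and 2 (edgeR adjusted p = 0.00125, Benjamini-Hochberg), and 0.064 within replicates 3 and 4 (edgeR adjusted p = 0.822, Benjamini-Hochberg). With the replicate block over all libraries it was -1.16 and not called in edgeR (adjusted p = 0.166, Benjamini-Hochberg), whereas DESeq2 with the block called it (-1.11, adjusted p = 0.0476, Benjamini-Hochberg). The p-values within replicates 1 and 2 and within replicates 3 and 4 each rest on 2 against 2 libraries and measure only the spread among these.

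Cell markers moved in part with Tlr9. The 7 dendritic cell markers summed to 14582, 9758, 6725 and 6350 CPM in BMDC, against 7149, 4641, 3032 and 3029 CPM in BMDC-fer replicates 1 to 4, so that BMDC replicates 1 and 2 were again the highest. Cd74 and H2-Ab1 made up most of this sum. They were highest in BMDC replicates 1 and 2, as were Zbtb46, Cd209a and Dpp4. Itgax went the other way, with 943 and 787 CPM in BMDC replicates 1 and 2 and 1305 and 1407 CPM in replicates 3 and 4. The 6 markers of cross-presenting dendritic cells (cDC1) summed to 475, 404, 213 and 191 CPM in BMDC, against 182, 158, 136 and 145 CPM in BMDC-fer, so that the groups did not overlap. Wdfy4 made up most of this sum, and 22.9% of all tested genes did not overlap. Among the 6, Itgae was called and lower in BMDC-fer (log2 fold change -3.23). The others were not called, with -1.25 for Wdfy4, -0.26 for Batf3, -0.08 for Xcr1, -0.06 for Cadm1 and 0.99 for Clec9a. Unlike Tlr9, Clec9a was lowest in BMDC replicates 1 and 2 (2.93 and 4.36 CPM). The 6 mast cell and basophil markers summed to 41.2, 25.9, 12.6 and 12.9 CPM in BMDC, against 12.4, 4.77, 9.66 and 6.86 CPM in BMDC-fer, again highest in BMDC replicates 1 and 2, and 2 of them passed the filter on low counts. The 6 plasmacytoid dendritic cell markers summed to 27.5 to 40.2 CPM in BMDC and 15.5 to 18.9 CPM in BMDC-fer, but Siglech, which defines these cells, was at or under 3 counts in 7 of 8 libraries. The 6 B-cell markers, from another cell type rich in Tlr9, summed to 0.415 to 1.47 CPM in BMDC and 0.405 to 0.602 CPM in BMDC-fer. The part of these cell types in the values of Tlr9 was not tested.

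**Figure D3:**
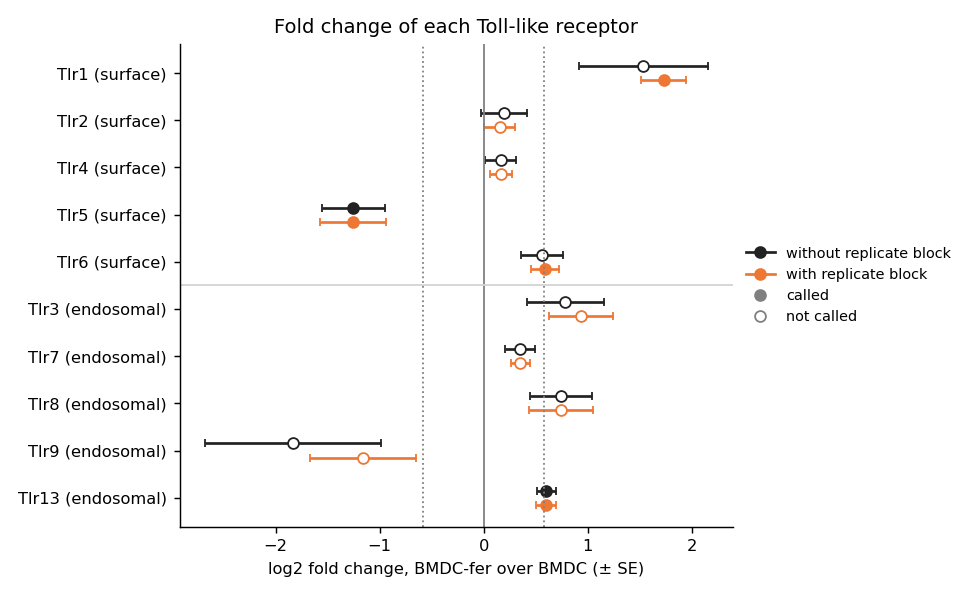
log2 fold change of each receptor, BMDC-fer over BMDC (horizontal axis, bars ± SE), without the replicate block (black) and with it (orange), filled where the receptor was called and open where it was not, with dotted lines at the threshold of 0.58 in either direction. Tlr5 and Tlr13 are filled in both fits, and Tlr1 and Tlr6 only with the block.

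Set against each other, the 2 classes gave the same number of calls in opposite directions. Among surface receptors 0 rose and 1 fell, with a median log2 fold change of 0.20, which is the value of Tlr2. Among endosomal receptors 1 rose and 0 fell, with a median of 0.60, which is the value of the called Tlr13. The median over all 15411 tested genes was 0.00069, and 4 receptors of each class had a positive fold change, as had 7718 of all tested genes. With the replicate block the surface class had 2 called higher and 1 lower, and the endosomal class kept 1 called higher. At an unadjusted p under 0.05 in edgeR, 2 surface receptors were higher and 1 lower, and 3 endosomal receptors were higher and 0 lower. DESeq2 called 1 surface receptor higher and 1 lower, and 1 endosomal receptor higher and 0 lower, where it called 13.3% of all genes. Whether the classes differ as classes was not tested, since 5 genes of a class share the same libraries and are not replicates.

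Libraries of the same number give a closer view of this contrast. The difference in log2(CPM + 0.05) for Tlr1 was 1.32, 1.37, 1.79 and 2.47 in replicates 1 to 4, and for Tlr6 it was 0.86, 0.76, 0.31 and 0.43. Tlr13 differed by 0.55, 0.46, 0.63 and 0.76, and Tlr5 by -1.58, -1.58, -0.64 and -0.80. For 6 receptors (Tlr1, Tlr3, Tlr4, Tlr6, Tlr7 and Tlr13) all 4 differences were positive, and for Tlr5 all 4 were negative. The share of all genes with 4 differences of the same sign is not given here, so these counts are a description. Tlr2 and Tlr8 were higher in 3 of 4 cases, and Tlr9 in 1 of 4.

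Within replicates 1 and 2, 4 members were called, Tlr1 and Tlr6 higher and Tlr5 and Tlr9 lower, where 19.4% of all genes tested in these libraries were called (8.16% higher and 11.3% lower). Within replicates 3 and 4, another 4 calls were all higher in BMDC-fer (Tlr1, Tlr3, Tlr8 and Tlr13), where 35.7% of all genes were called (17.7% higher and 18% lower). The median of the surface receptors was 0.36 in the first pair (the value of Tlr2) and 0.18 in the second (that of Tlr4). The median of the endosomal receptors was 0.34 (the value of Tlr7) and 0.71 (that of the called Tlr13). Tlr1 was the member called in both pairs. Each of these fits compared 2 against 2 libraries, so its calls reflect only the spread inside that pair. The difference between the pairs was itself not tested, because the pairs were recognised from these data.

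**Figure D4:**
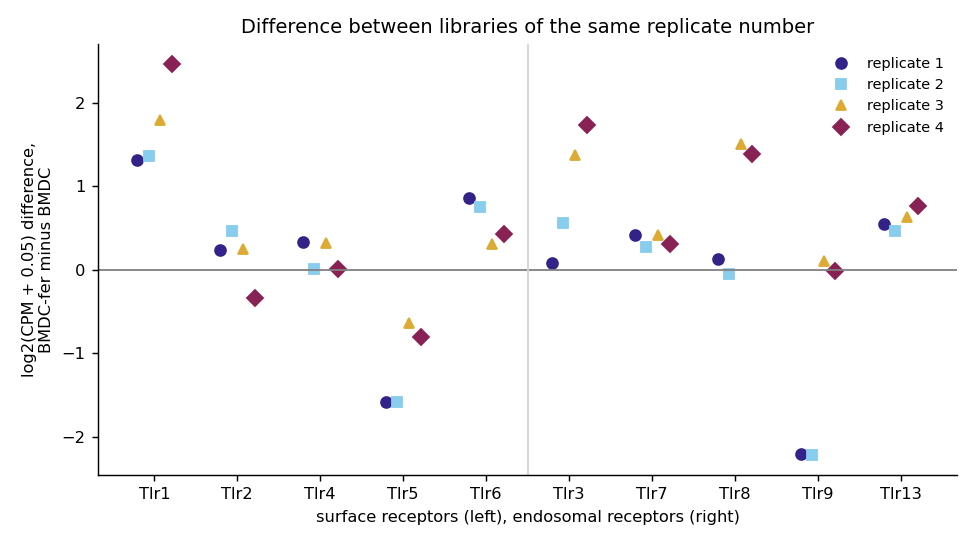
Difference in log2(CPM + 0.05) between the BMDC-fer and the BMDC library of the same replicate number (vertical axis) for each receptor, surface receptors on the left and endosomal on the right, a symbol per replicate number. Replicates 1 and 2 lie at -2.20 and -2.22 for Tlr9, where replicates 3 and 4 lie near 0, and the reverse holds for Tlr8, with 1.51 and 1.38 in replicates 3 and 4.

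Among the genes whose pattern over the 8 libraries was most like that of Tlr1, by Pearson's r of log2 CPM among 10270 tested genes with a mean of at least 5 CPM, were Tbkbp1, which encodes a binding partner of the kinase TBK1 (r = 0.992), and Rab3il1 (r = 0.992). Those most like Tlr9 were Myo18a, an unconventional myosin (r = 0.996), Gapt (r = 0.995) and the centrosomal gene Cep131 (r = 0.995). None of these 5 genes was called. The libraries share their replicate pairs, and these r values are a description.

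The third question was how the rest of the pathway moved. Of 101 genes listed for their known roles beside the receptors, 95 were tested, 3 rose and 5 fell, and their median log2 fold change was 0.18. These 8 calls among 95 genes were a share close to the 9.38% of all tested genes. With the replicate block 15 rose and 5 fell, or 20 of 95, where 13% of all genes were called. The 3 genes that rose were Ly96, Jun and Clec7a, and the 5 that fell were Tlr12, Traf6, Sigirr, Ccl5 and Nlrp3.

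Mice have other endosomal receptors, Tlr11 and Tlr12, which recognise profilin of parasites. Tlr12 fell from 0.491 ± 0.214 to 0.0734 ± 0.0439 CPM (± SD of 4 libraries), with a log2 fold change of -2.67 (SE 0.50, edgeR adjusted p = 0.0142, Benjamini-Hochberg) that rested on 13 to 37 counts per library in BMDC and 1 to 6 in BMDC-fer. Tlr11 had 106, 99, 3 and 1 counts in BMDC and 78, 73, 22 and 57 in BMDC-fer, so that it too was far lower in BMDC replicates 3 and 4 than in 1 and 2. Its log2 fold change was 0.21 (SE 1.03, edgeR adjusted p = 0.905, Benjamini-Hochberg).

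Among co-receptors and ligand-presenting proteins, 1 of 7 tested genes rose, and 3 with the replicate block. Ly96 encodes the secreted protein that completes the lipopolysaccharide receptor with TLR4, and it had 5.35, 6.38, 5.49 and 6.58 CPM in BMDC, against 11.2, 12.02, 12.6 and 15.5 CPM in BMDC-fer. All BMDC-fer libraries were above all BMDC libraries, by a log2 fold change of 1.11 (SE 0.16, edgeR adjusted p = 0.00587, Benjamini-Hochberg), whereas Tlr4 itself did not pass the test. With the block the scavenger receptor gene Cd36 was also called (0.97, edgeR adjusted p = 0.0218, Benjamini-Hochberg), as was Cd180, which encodes a TLR4-related surface protein (0.68, edgeR adjusted p = 0.0171, Benjamini-Hochberg). Ly86, the partner of CD180, had the lowest value of the list, -0.54 (edgeR adjusted p = 0.117, Benjamini-Hochberg). Cd14, which hands lipopolysaccharide to TLR4, had -0.11 (edgeR adjusted p = 0.910, Benjamini-Hochberg).

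Of the 11 chaperones, trafficking factors and proteases that endosomal receptors need, 0 were called by edgeR, with a median of 0.22, while 4 had an unadjusted p under 0.05 and DESeq2 called 1. Values ran from -0.03 for Ap3b1, a subunit of the AP-3 sorting complex, to 0.84 for Ctsl, the protease cathepsin L, which was called only with the replicate block (0.94, edgeR adjusted p = 0.0266, Benjamini-Hochberg). Unc93b1 had 525 ± 59.4 CPM in BMDC, against 561 ± 59.6 CPM in BMDC-fer (± SD of 4 libraries), and its log2 fold change was 0.09 (edgeR adjusted p = 0.652, Benjamini-Hochberg).

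Adaptors and kinases gave 1 call among 20 genes, Traf6, the ubiquitin ligase downstream of MyD88. Traf6 had 45.1, 48.2, 153 and 159.7 CPM in BMDC, against 34.0, 34.3, 35.8 and 34.9 CPM in BMDC-fer. BMDC-fer libraries were nearly equal and below all BMDC libraries, of which replicates 3 and 4 were far higher than 1 and 2. The log2 fold change was -1.54 (SE 0.42, edgeR adjusted p = 0.0466, Benjamini-Hochberg), and with the replicate block it was -1.30 and not called (adjusted p = 0.0634 in edgeR, Benjamini-Hochberg). Ikbke, a kinase that activates interferon regulatory factors, had the highest value, 1.02 (edgeR adjusted p = 0.0707, Benjamini-Hochberg), and was called with the block (1.07, edgeR adjusted p = 0.00533, Benjamini-Hochberg). Tab3, which encodes a TAK1-binding adaptor, was called lower with the block alone (-0.87, edgeR adjusted p = 0.0447, Benjamini-Hochberg). Myd88 had 0.18 (edgeR adjusted p = 0.669, Benjamini-Hochberg).

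Among 8 downstream transcription factors Jun, a subunit of AP-1, rose from 86.5 ± 19.0 to 141 ± 16.9 CPM (± SD of 4 libraries), with a log2 fold change of 0.70 (SE 0.16, edgeR adjusted p = 0.0288, Benjamini-Hochberg). The others did not pass, from -0.25 for Irf5 to 0.84 for Irf7 (edgeR adjusted p = 0.637 and 0.450, Benjamini-Hochberg). Of 15 tested negative regulators, Sigirr, an inhibitory receptor with a TIR domain, fell from 7.32 ± 1.52 to 2.91 ± 0.754 CPM, with a log2 fold change of -1.33 (SE 0.24, edgeR adjusted p = 0.0131, Benjamini-Hochberg). The extremes of that list were Il1rl1, the receptor of interleukin-33, at -2.86 (edgeR adjusted p = 0.173, and 0.0114 with the block, where it was called, Benjamini-Hochberg), and Socs1 at 0.99 (edgeR adjusted p = 0.0696, Benjamini-Hochberg). Irak3, an inhibitory kinase relative, had 0.574 and passed the threshold of 0.58 with the block alone (0.583, edgeR adjusted p = 0.0222, Benjamini-Hochberg).

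Among 13 tested NF-κB targets 0 were called by edgeR or DESeq2 without the replicate block and 1 had an unadjusted p under 0.05 in edgeR, with values from -0.95 for Nfkbiz to 1.30 for Acod1, which makes itaconate. Within replicates 1 and 2 the log2 fold change was positive, and within replicates 3 and 4 negative, for Cxcl1, Cxcl2, Cxcl3, Il1a, Il1b, Il6, Il12b, Ptgs2, Nfkbia and Nfkbiz. Cxcl2 had 3.00 and -1.39, and Il12b 0.50 and -3.29. Tnf, Acod1 and Nos2 were positive in both pairs. The values over all libraries thus average opposite differences for most of the list. With the block 2 of the 13 were called, where 13% of all genes were: Acod1 (1.2, edgeR adjusted p = 0.00610, Benjamini-Hochberg) and Tnf, the gene of the cytokine TNF. Tnf had 79.5, 56.04, 20.1 and 20.7 CPM in BMDC, against 163, 126, 48.6 and 54.2 CPM in BMDC-fer. Each BMDC-fer library was above the BMDC library of the same number, while the groups overlapped. Its log2 fold change was 1.15 (SE 0.55, edgeR adjusted p = 0.197, Benjamini-Hochberg), and 1.22 with the block (edgeR adjusted p = 0.00445, Benjamini-Hochberg). Among 9 tested targets of interferon regulatory factors, the chemokine gene Ccl5 fell from 68.7 ± 46.3 to 4.72 ± 2.15 CPM, with a log2 fold change of -3.86 (SE 0.59, edgeR adjusted p = 0.00715, Benjamini-Hochberg), while the median of the list was 1.00. Ifit1, an interferon-induced gene, was at 1.52 and was not called (adjusted p = 0.279 in edgeR, and 0.00731 with the block, where it was called, Benjamini-Hochberg). With the block 5 of these 9 genes were called higher (Cxcl10, Ifit1, Ifit2, Ifit3 and Rsad2) and 1 lower (Ccl5), where 4.85% of all genes were called higher and 8.13% lower. Ifnb1, the gene of interferon-β, was on the list but did not pass the edgeR filter on low counts. It had 1, 0, 3 and 0 counts in BMDC, at or under the floor, and 20, 24, 6 and 5 in BMDC-fer. Its groups did not overlap, as for 22.9% of tested genes. DESeq2 without the block called Ifnb1 higher (adjusted p = 0.00457, Benjamini-Hochberg), where it called 13.3% of all genes.

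Receptors of other families that sense microbes or damage had 2 calls among 10. Clec7a, the β-glucan receptor Dectin-1, rose from 657 ± 97.4 to 1371 ± 330.1 CPM (± SD of 4 libraries), with a log2 fold change of 1.06 (SE 0.20, edgeR adjusted p = 0.0138, Benjamini-Hochberg). Nlrp3, the sensor of an inflammasome, fell from 225 ± 88.1 to 90.4 ± 17.9 CPM, with a log2 fold change of -1.32 (SE 0.28, edgeR adjusted p = 0.0235, Benjamini-Hochberg), and was not called with the replicate block (-1.25, edgeR adjusted p = 0.0520, Benjamini-Hochberg).

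**Figure D5:**
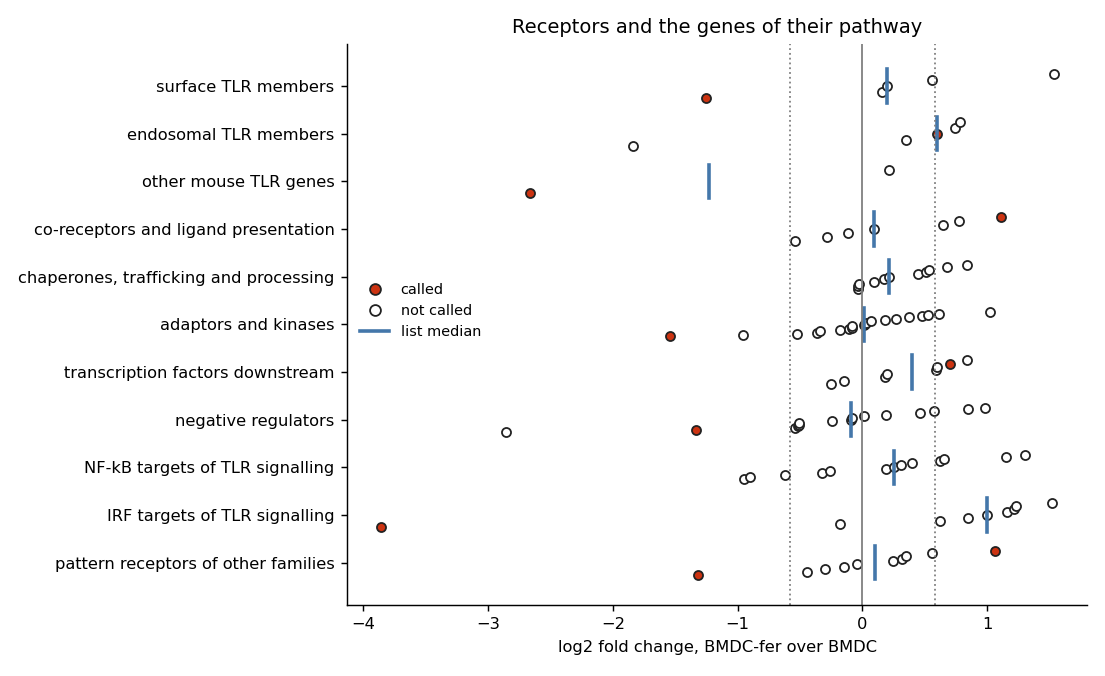
log2 fold change, BMDC-fer over BMDC (horizontal axis), of every tested gene of the receptor classes and of the pathway lists, filled where called, with a blue bar at each list's median and dotted lines at the threshold of 0.58 in either direction. The lists hold between 0 and 2 called genes each, with the lowest value for Ccl5 (-3.86) and the highest for Tlr1 (1.54).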

How the data were processed

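Total RNA was extracted with TRIzol and a column kit, mRNA was enriched with oligo(dT) beads, and Illumina libraries were sequenced. The submitters' processing notes name CASAVA, HISAT2, featureCounts, DESeq2 and the mm10 build, and the authors counted reads against both the mouse and the human genome. The authors deposited raw mouse counts per gene without normalization, which were used unchanged. Human counts were not analysed here. Annotation, strand and the treatment of reads with several matches are not given in the sources used here.

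Libraries were grouped and numbered by their labels. GENCODE M21 (GRCm38) gave symbols for 55227 of 55487 identifiers, and exon lengths. Counts were fitted in R 4.3.3 with edgeR 4.0.16 (TMM, filterByExpr with a count minimum of 10, quasi-likelihood test, Benjamini-Hochberg over 15411 genes). Calls required an adjusted p not above 0.05 and a log2 fold change of at least 0.58 in either direction. Only these cut-offs follow the study's methods, which applied them to DESeq2 and not to edgeR. Of the alternatives, DESeq2 1.42.0 left some genes without an adjusted p, and these were not counted as tested. For each receptor, log2(CPM + 0.05) was further compared by an exact permutation test, two-sided. It shuffled all libraries freely, without regard to the replicate sets, so its p-values do not allow for these sets. The fits were tested on simulated data in which all genes had the same spread beyond counting error and replicates did not form sets. That simulation therefore cannot show how the fits behave with the replicate sets of these libraries. The members and the gene lists were chosen with earlier results of these data known.

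All 10 members are named. From each pathway list the text names every called gene and the tested genes with the highest and the lowest log2 fold change, and for the surface and the endosomal member with the largest absolute fold change the 3 most correlated genes, of which 1 is not reported here. Cd14, Myd88, Unc93b1, Ifnb1, the other tested NF-κB targets, genes called only with the replicate block and the cell markers were named in addition, after their values were seen. The replicate block used the numbers of the labels, and no source used here states that same-numbered libraries belong together. After subtraction of group means, the 4 same-numbered pairs correlated over genes with r of 0.31 to 0.45. Different numbers gave r of 0.19 to 0.38 within replicates 1 and 2 or 3 and 4, and r of -0.39 to -0.28 across them. The shared deviation thus followed these sets more than the single numbers, and BMDC replicates 3 and 4 each correlated best with another number. The shared numbers come from the sample labels. No 2 libraries agreed within sampling noise. The floor of 3 counts covers counting error alone, because the reads carry no molecular identifiers, and p-values measure the spread between these libraries.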

Additional observations from a re-analysis of the deposited data

Results flagged for a closer look

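In the 20 sets of 4 values, one for each receptor and group, 1 value lay far from the rest by Dixon's criterion for 4 samples. Tlr7 in BMDC replicate 1 was 45.8 CPM, where the other libraries of the group had 63.1 to 63.4 CPM, and the gap to its nearest neighbour took up 0.979 of the range of the group, above the critical value of that criterion. Chance alone marks about 1 in 20 such sets. Without this library the log2 fold change of Tlr7 was 0.25, again without a call (Benjamini-Hochberg adjusted p = 0.225 from edgeR).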

How the results depend on the processing

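Scaling by DESeq2's size factors or by upper quartiles changed no count of called receptors, and under all scalings 8 of 10 receptors had a positive fold change. The replicate block raised the called receptors from 2 to 4 (surface 1 to 3) and the pathway genes from 8 to 20, and changed no other call among the receptors. Called receptors numbered 1 without a filter on low counts and 1 with a filter of 1 CPM in 4 libraries (surface 0 in both, the filter of 1 CPM having removed Tlr5), 4 within replicates 1 and 2 (surface 3), 4 within replicates 3 and 4 (endosomal 3), and 0 to 2 with 1 library left out (surface 0, endosomal 0 to 2). DESeq2 called 2 surface receptors. Chosen after the data were seen, DESeq2 with the block called 6 (Tlr3 and Tlr9 beside those of edgeR with the block), and edgeR without the BMDC libraries richest in neutrophil markers (replicates 1 and 3) called 0 receptors, 1 pathway gene and 92 of all genes, with 3 receptors at an unadjusted p under 0.05. Pathway genes numbered 15 with DESeq2, 38 and 44 within the pairs, 13 without the fold threshold, and 4 to 10 with 1 library left out (4 without BMDC-fer replicate 4, 5 without BMDC replicate 3 or BMDC-fer replicate 2). All genes called numbered 2415 with DESeq2, 3062 and 5604 within the pairs, and 565 to 1440 with 1 library left out, lowest without BMDC-fer replicate 4. Within replicates 3 and 4 the sign reversed for Tlr2 (-0.019) and Tlr9 (0.064). Per kb of the longest transcript, Tlr13 was 35.2 in BMDC and 53.4 in BMDC-fer, Tlr4 25.5 and 28.5 CPM, Tlr1 8.18 and 23.7 CPM, so that Tlr1 passed Tlr8 (7.88) in BMDC and Tlr4 passed Tlr1 in BMDC-fer, and in BMDC-fer Tlr3 was 1.75 and Tlr5 0.0893 CPM. A pseudocount of 0.5 CPM changed no permutation p-value, but the difference of Tlr5 shrank from -1.15 to -0.64. The cause of these differences was not tested. Depth limits Tlr5, with 9 to 49 counts per library.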
